A study of Mus musculus with 12 samples.

Results

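The 8 genes described here code for proteins that guard or extend chromosome ends: Stn1, Terf1, Terf2, Tinf2, Acd, Pot1a, Rif1 and Tert. They were chosen by name, and every probe set that the platform annotation assigns to one of them alone was taken, which gave 22 probe sets of the 45037 measured. No probe set shared between several genes held a member. RNA was measured in pooled testes of male mouse embryos on 12 Affymetrix arrays, 2 for each combination of strain and stage. The control strain, 129/Sv (129), is an inbred mouse strain. The other strain, 129.MOLF-Chr 19 (M19), is a chromosome substitution strain: it carries chromosome 19 of the strain MOLF on a 129 background and is known for its high rate of testicular germ cell tumours. Each strain was sampled at E13.5, at E15.5 and at E17.5, stages named by days of embryonic development, and the labels name no treatment. RNA of 40 pairs of testes was pooled for 2 arrays, so both arrays of a group may share a pool, and the p-values then measure only technical spread between arrays. Whole testes were used, so fewer cells of a type and less RNA per cell cannot be told apart.

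Telomeres are repeated DNA at chromosome ends. Shelterin, a complex that coats them, keeps the ends from being treated as broken DNA. Terf1 and Terf2 bind its double-stranded repeats, Tinf2 links them to Acd, and Acd carries Pot1 proteins, which bind the single-stranded overhang. The CST complex of Ctc1, Stn1 and Ten1 helps to fill in the strand opposite that overhang and limits extension by telomerase, whose catalytic subunit is Tert. Rif1 acts at telomeres in yeast, while in mammals it acts mainly in replication timing and the choice of DNA break repair. Germ cells pass their telomeres to the next generation, and telomerase is known to be active in them.

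Stn1 is the member that lies on the substituted chromosome, at chr19:47501031-47545845. The others lie on chromosomes of 129 origin in both strains: Terf1 at chr1:15805546-15844052, Terf2 at chr8:107069400-107096548, Tinf2 at chr14:55676208-55682159, Acd at chr8:105698155-105701228, Pot1a at chr6:25743940-25809277, Rif1 at chr2:52072815-52126769 and Tert at chr13:73626911-73649843. These positions are those of RefSeq in build GRCm38.p6. Promoter sequence was matched for 6 of the 8 genes. The 250 bases before a start site are printed for Stn1, which lies within the replaced chromosome, and for Tinf2 and Pot1a, a pair of shelterin genes with opposite calls between E13.5 and E17.5. They are RefSeq's GRCm38.p6 sequence, which is that of C57BL/6J and of neither strain studied, each on its gene's strand and 5′ to 3′. The Stn1 window is chr19:47537120-47537369, that of Tinf2 chr14:55681818-55682067 and that of Pot1a chr6:25809219-25809468, all on the minus strand. The start sites used lie inside the annotated spans given above, at chr19:47537119 for Stn1, so none is the outermost 5′ end of its gene. The windows of Stn1 and Tinf2 thus lie wholly within those spans, and that of Pot1a partly.
Stn1: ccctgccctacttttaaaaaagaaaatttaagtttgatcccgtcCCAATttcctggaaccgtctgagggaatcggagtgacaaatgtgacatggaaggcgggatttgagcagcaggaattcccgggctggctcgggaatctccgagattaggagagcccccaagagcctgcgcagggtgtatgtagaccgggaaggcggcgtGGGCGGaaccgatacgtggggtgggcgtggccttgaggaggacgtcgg
Tinf2: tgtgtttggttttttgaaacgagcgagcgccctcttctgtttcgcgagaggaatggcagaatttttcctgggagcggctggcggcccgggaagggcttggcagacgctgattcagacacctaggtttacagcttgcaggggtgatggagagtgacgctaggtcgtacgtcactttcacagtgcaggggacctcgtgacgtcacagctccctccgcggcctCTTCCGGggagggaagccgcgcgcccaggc
Pot1a: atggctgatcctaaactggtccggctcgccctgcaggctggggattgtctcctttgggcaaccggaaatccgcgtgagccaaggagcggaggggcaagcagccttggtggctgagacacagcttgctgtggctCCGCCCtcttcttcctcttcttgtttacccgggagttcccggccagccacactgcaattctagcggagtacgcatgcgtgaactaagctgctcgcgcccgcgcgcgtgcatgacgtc
Capitals mark matches, on either strand, to the GC box GGGCGG, the CCAAT box CCAAT and the ETS core CCGGAAG, which do not overlap here. The Stn1 window held a GC box whose first base lies 48 bases before the start site used and a CCAAT box 206 bases before it. The Tinf2 window held an ETS core 30 bases before the start, and that of Pot1a a GC box 117 bases before it, both on the opposite strand. Of all 32851 RefSeq windows of this length, 32.7% held a GC box, 33.8% a CCAAT box and 6.91% an ETS core. GC content was 56.8% for Stn1, 60.4% for Tinf2 and 61.6% for Pot1a.

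All levels are deposited log2 signals, and differences, with their standard error (SE) from the fitted model, are in the same unit. A probe set was called where its Benjamini-Hochberg adjusted p in limma, over all 45037 probe sets, was under 0.05. The 2 arrays of a group correlated at 0.979 to 0.996 over all probe sets. Markers of germ cells (6 measured), Sertoli cells (5) and fetal Leydig cells (4) were present on all arrays, with mean levels of 10.73 to 12.09, 10.32 to 10.64 and 10.83 to 13.26. Both 129 arrays of E15.5 stood apart: their 5 skin markers averaged 10.46 to 10.48, against 7.06 to 7.52 on the other arrays, and their 4 muscle and cartilage markers 9.78 to 9.86, against 7.31 to 8.02. All of these skin, muscle and cartilage markers were called lower in M19 at E15.5. Replicate 1 of 129 at E13.5 had an 18S ribosomal control level of 9.69, against 6.88 to 8.38 on the other arrays. No marker was at 0 on any array.

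Stn1 was the sole member called for strain when the 3 stages were averaged. Its brightest probe set, 1434737_at, was 1.88-fold lower in M19, a difference of -0.91 ± 0.11 (SE, 6 arrays per strain; limma adjusted p = 0.0036). In 129 it read 9.34 and 9.83 at E13.5, 9.30 and 9.68 at E15.5, and 9.08 and 9.21 at E17.5. In M19 it read 8.60 and 8.84 at E13.5, 8.65 and 8.29 at E15.5, and 8.30 and 8.32 at E17.5. Every M19 array lay below every 129 array, the highest M19 array being at 8.84 and the lowest 129 array at 9.08. Over all probe sets, 0.42% were called in the averaged comparison, and 0.304% were called lower. The pattern of M19 wholly below 129 was seen in 81 of 45037 probe sets (0.18%) and, on chromosome 19, in 49 of 1211 (4.05%).

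The Stn1 difference had the same sign at each stage. It was -0.87 ± 0.19 at E13.5 (1.82-fold lower; limma adjusted p = 0.51), -1.03 ± 0.19 at E15.5 (2.04-fold lower; adjusted p = 0.046) and -0.83 ± 0.19 at E17.5 (1.78-fold lower; adjusted p = 0.53), each with 2 arrays per strain. A strain by stage interaction was not detected (unadjusted p = 0.75, adjusted p = 1 by limma's F test). The averaged call held when any 1 of the 12 arrays was left out, with differences from -0.99 to -0.83. It also held with the 2 arrays of each group averaged first and strain and stage as additive terms (-0.91 ± 0.08, adjusted p = 0.0074). It was lost without the 4 arrays of E15.5, where the difference was -0.85 and the adjusted p 0.075. The call at E15.5 was weaker: it held without either 129 array of E13.5 or replicate 1 of 129 at E15.5 and was lost without any of the other 9 arrays, with adjusted p of 0.077 to 0.41 and differences of -1.21 to -0.84. The 129 arrays of E15.5 held the high skin, muscle and cartilage markers given above, and their part in the Stn1 difference was not tested. Less Stn1 RNA and a poorer match of MOLF transcripts to the probes cannot be told apart in this design.

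**Figure D1:**
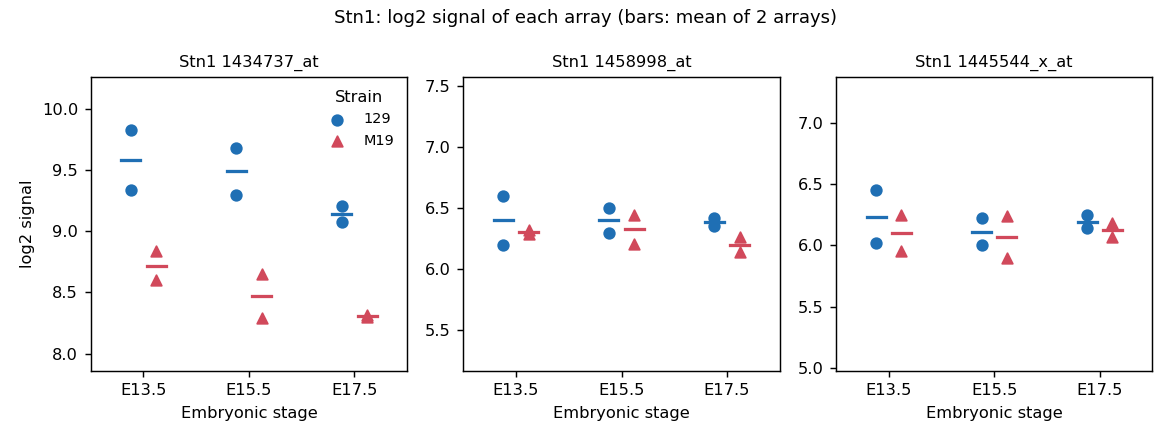
Log2 signal of the 3 Stn1 probe sets against embryonic stage, by strain; each point is 1 array and each bar a group mean. On 1434737_at all 6 M19 arrays (8.29 to 8.84) lie below all 6 129 arrays (9.08 to 9.83). On 1458998_at and 1445544_x_at the ranges of the strains over all stages overlap.

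The other probe sets of Stn1 did not show this separation. Probe set 1458998_at ranged from 6.14 to 6.60 over all 12 arrays, with a strain difference of -0.12 ± 0.09 averaged over stages (limma adjusted p = 1). Probe set 1445544_x_at ranged from 5.90 to 6.45, with a difference of -0.08 ± 0.10 (adjusted p = 1). Both were dim, with means of 6.34 and 6.14 against a median of 8.17 over all probe set means, and both derive from the same source sequence record. The suffix _x_at marks probes that can also match other sequences. The low level of Stn1 in M19 therefore rests on 1 probe set of 3.

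With stage, Stn1 1434737_at was lower at E17.5 than at E13.5, by -0.42 ± 0.14 averaged over strains (4 arrays per stage; limma adjusted p = 0.046). In order of level the groups ran from 129 at E13.5 (9.58 ± 0.34, SD, n = 2) through 129 at E15.5 (9.49 ± 0.27) and E17.5 (9.14 ± 0.09) to M19 at E13.5 (8.72 ± 0.17), E15.5 (8.47 ± 0.26) and E17.5 (8.31 ± 0.01). The arrays of neighbouring groups overlapped between the first and the second in this order and among the 3 M19 groups. The stage call held without replicate 1 of 129 at E13.5 or any array of E15.5. It was lost without any of the other 7 arrays, with differences of -0.48 to -0.30 and adjusted p from 0.067 to 0.17.

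Among the 1211 probe sets of chromosome 19, which stand for 609 genes, Stn1 1434737_at had the 17th most negative strain difference, and the 42nd of all 45037. Of these 1211 probe sets 7.35% were called in the averaged comparison and 5.12% were called lower. The 15 genes whose annotated ends lie within 500 kb of that of Stn1 have 33 probe sets, of which 21 were lower in M19 by sign. Their median difference was -0.04, and the range ran from -0.84 to 0.34. The called one was 1418799_a_at of Col17a1, a collagen of the skin's basement membrane, 145 kb away (-0.84 ± 0.08, limma adjusted p = 0.00054). Its difference was -1.59 at E15.5, the stage at which skin markers were high in 129, and -0.74 and -0.18 at E13.5 and E17.5. Without the E15.5 arrays its averaged difference was -0.46, with an adjusted p of 0.43, and the part of the skin markers in it was not tested. Of these genes, those that border Stn1 on either side were Sh3pxd2a, a scaffold protein, with differences of -0.11 and -0.03, and Slk, a kinase, whose brightest probe set differed by 0.13 ± 0.08 and 1433999_at by -0.48 ± 0.10 (adjusted p = 1 and 0.095).

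**Figure D2:**
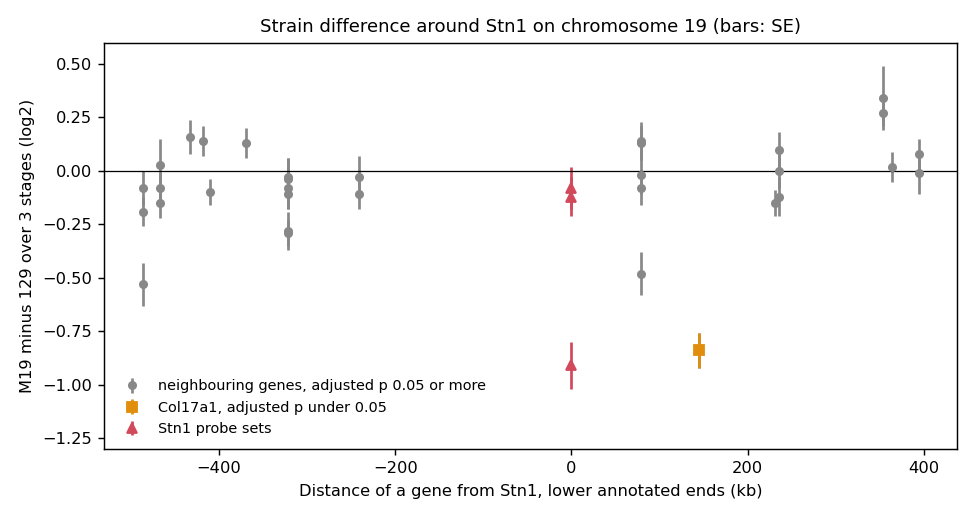
Strain difference (M19 minus 129, log2, averaged over 3 stages) of the probe sets of genes within 500 kb of Stn1, against the distance in kb between lower annotated ends; bars are SE. Stn1 1434737_at, at -0.91, and Col17a1, at -0.84, lie below the other neighbours, and the other 2 Stn1 probe sets lie at -0.12 and -0.08.

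The genes most like Stn1 over the 12 arrays were sought among 18193 genes by Pearson correlation with 1434737_at, each gene taken by its brightest probe set. They were Men1 (0.93), Sf1 (0.92), Kif20b (0.92), Lipo3 (0.92) and Tkfc (0.91). All 5 lie on chromosome 19, and each was called lower in M19 over the 3 stages. The size of their strain difference ran from -0.39 for Men1, the menin tumour suppressor gene (limma adjusted p = 0.033), to -1.99 for Sf1, a splicing factor gene (adjusted p = 4.2e-06). The calls of Sf1, Kif20b and Lipo3 held without any 1 array. That of Men1 held without replicate 2 of 129 at E13.5 and was lost without any other array (adjusted p 0.055 to 0.20), and that of Tkfc held without either 129 array of E13.5 and was lost without any other (0.058 to 0.21). The correlation holds the strain difference itself, and the 12 arrays include pairs that may share a pool.

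No other member was called in the strain comparison averaged over stages. The 22 probe sets had a median difference of 0.05, against -0.01 over all probe sets. At E13.5 and at E17.5 limma called 0 of 22, where 0.0511% and 0.0977% of all probe sets were called. At an unadjusted p under 0.05 there were 1 and 2, against 1252 and 798 of all 45037 probe sets. At E15.5 there were 2 of 22 calls, Stn1 lower and a Rif1 probe set higher, where 0.573% of all probe sets were called, 0.12% higher and 0.453% lower. An unadjusted p under 0.05 was seen there in 8 of 22, against 3422 of all 45037 probe sets. The median of the members at E15.5 was 0.19, against 0.01 over all probe sets. For the strain by stage interaction limma called 0 of 22 (0.147% of all probe sets), and 5 had an unadjusted p under 0.05: 2 of Terf1 and 3 of Rif1. Of all 45037 probe sets, 1636 had such a p for the interaction.

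**Figure D3:**
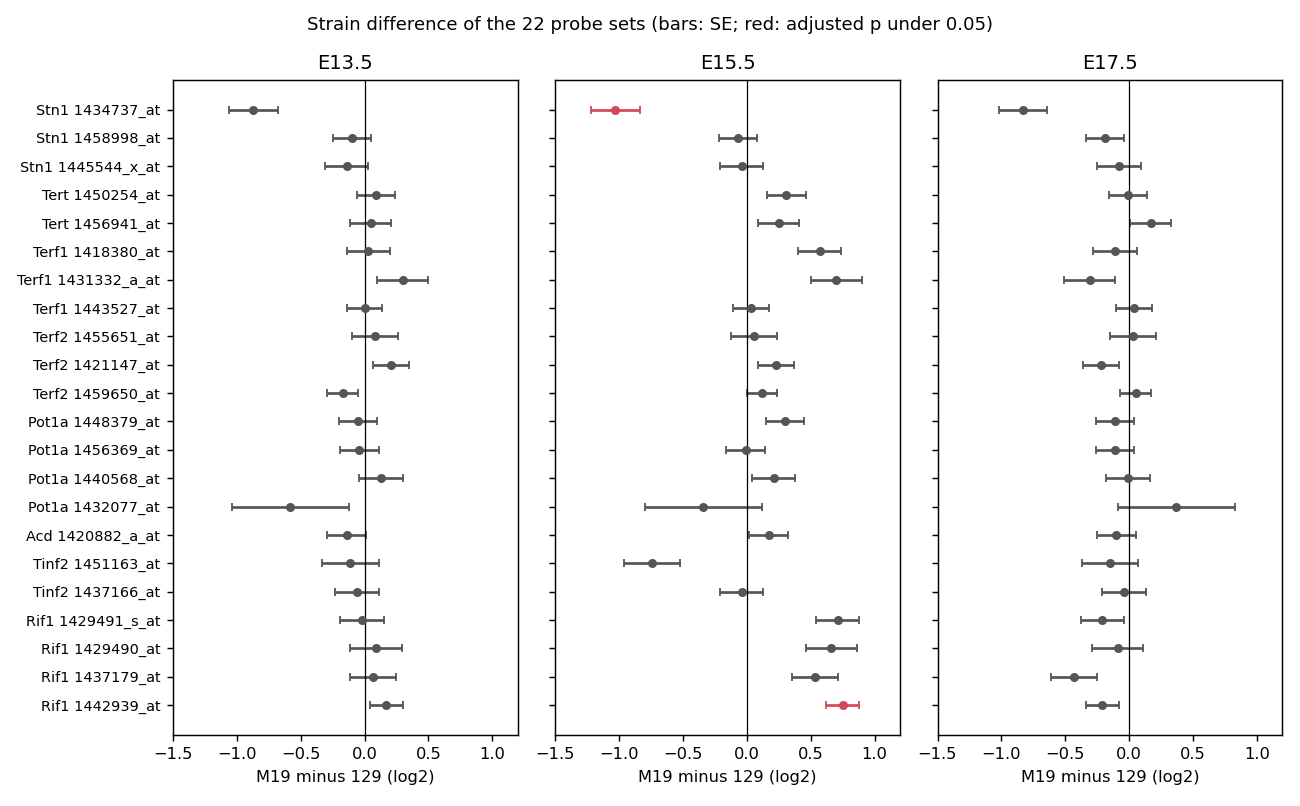
Strain difference (M19 minus 129, log2) of each of the 22 probe sets at E13.5, at E15.5 and at E17.5, 1 panel each; bars are SE and red marks an adjusted p under 0.05. Stn1 1434737_at is low in every panel (-0.87, -1.03 and -0.83), while 2 of the 3 Terf1 and all 4 Rif1 probe sets lie at 0.53 or above at E15.5.

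Between E13.5 and E17.5, averaged over strains, 8 of the 22 probe sets changed, 7 lower and 1 higher. They belong to Terf1 (2), Rif1 (2), Stn1, Tinf2 and Tert, which fell, and Pot1a, which rose. Over all probe sets 22.5% were called in this comparison, 10.3% lower and 12.2% higher. The share of members called lower was 31.8%, though probe sets of 1 gene are not independent. The members' median was -0.16, against 0.03 over all probe sets. Beside these, 4 of the 5 measured genes of dividing cells fell over the same span, with mean levels of 12.28 to 12.33 at E13.5 and 11.99 to 12.11 later. The 4 Leydig markers rose, and 3 of the 6 germ cell markers fell while 3 rose. The part of these cell types in the changes was not tested.

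Terf1, the shelterin subunit that binds double-stranded repeats and limits telomere length, showed the largest fall of the members. Its brightest probe set, 1418380_at, read 10.13 and 10.23 in 129 and 10.09 and 10.33 in M19 at E13.5. At E15.5 it read 9.32 and 9.57 in 129 and 10.09 and 9.93 in M19, and at E17.5 9.26 and 9.07 in 129 and 8.84 and 9.27 in M19. The strains overlapped at E13.5 and E17.5, and at E15.5 M19 read higher without a call (limma adjusted p = 0.31). From E13.5 to E17.5 it fell by 1.08 ± 0.12 on the log2 scale (2.12-fold; 4 arrays per stage; limma adjusted p = 7.8e-05), and this call held without any 1 array. A further probe set, 1431332_a_at, fell by 1.02 ± 0.14 (adjusted p = 0.00046). The third, 1443527_at, ranged from 7.61 to 7.97 and differed by 0.10 ± 0.10 (adjusted p = 0.50).

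The steps at which Terf1 fell were called at different stages in each strain. In 129, 1418380_at fell by 0.73 ± 0.17 from E13.5 to E15.5 (2 arrays per stage; limma adjusted p = 0.029). In M19 it fell by 0.96 ± 0.17 from E15.5 to E17.5 (adjusted p = 0.015), and 1431332_a_at by 0.95 ± 0.20 (adjusted p = 0.037). The strain difference at E15.5 was 0.57 ± 0.17 for 1418380_at and 0.70 ± 0.20 for 1431332_a_at, higher in M19, with adjusted p of 0.31 and 0.30. The interaction had unadjusted p of 0.034 and 0.014 and adjusted p of 1 and 0.98, so a different timing in the strains was not shown. Each step call was lost on leaving out arrays. That of 129 was lost without any 129 array of E13.5 or E15.5 (adjusted p 0.053 to 0.20). That of M19 in 1418380_at was lost without either M19 array of E15.5 or replicate 1 of M19 at E17.5 (0.069 to 0.18). That in 1431332_a_at was lost without any M19 array or either 129 array of E17.5 (0.05 to 0.38).

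Rif1 also fell over the span, on 2 of its 4 probe sets. Its brightest probe set, 1429491_s_at, read 11.54 and 11.65 in 129 and 11.50 and 11.64 in M19 at E13.5. At E15.5 it read 10.73 and 11.07 in 129 and 11.68 and 11.53 in M19, and at E17.5 11.32 and 10.94 in 129 and 10.75 and 11.10 in M19. At E15.5 M19 read higher by 0.71 ± 0.17 without a call (limma adjusted p = 0.17), and the strains overlapped at the other stages. The fall from E13.5 to E17.5 was 0.56 ± 0.12 for 1429491_s_at (limma adjusted p = 0.0082) and 0.75 ± 0.14 for 1429490_at (adjusted p = 0.0032), and both calls held without any 1 array. The changes of 1437179_at (-0.37, adjusted p = 0.056) and 1442939_at (-0.19, adjusted p = 0.18) were not called. In 129 the step from E13.5 to E15.5 was -0.70 ± 0.17 for 1429491_s_at (adjusted p = 0.047). That call was lost without any array of E13.5 or E15.5 (adjusted p 0.054 to 0.29). The suffix _s_at marks probes that match several transcripts.

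At E15.5 Rif1 was higher in M19 on all 4 of its probe sets by sign, by 0.53 to 0.75, and 1 of them was called. That was 1442939_at, which read 8.65 and 8.77 in 129 and 9.57 and 9.34 in M19 (1.68-fold higher, 0.75 ± 0.13, limma adjusted p = 0.032). At E17.5 the same probe set read 8.99 and 9.23 in 129 and 8.81 and 8.99 in M19, a difference of -0.21. Its interaction had an unadjusted p of 0.0011 and an adjusted p of 0.28. The call at E15.5 was lost without any array of E15.5 or either M19 array of E13.5 (adjusted p 0.079 to 0.38). Beside these E15.5 values, the 129 arrays of that stage held the high skin, muscle and cartilage markers given above, and the germ cell markers averaged 11.63 to 11.79 in 129 and 12.00 to 12.09 in M19. Of these 6 germ cell markers, 4 were higher in M19 by sign at E15.5, and 2, Mael (-0.13) and Dnd1 (-0.07), were lower. The 1 called was Dppa3, a marker of early germ cells, at 11.44 in 129 and 12.27 in M19 (limma adjusted p = 0.014). That call was lost without replicate 1 of 129 or either M19 array of that stage, with differences of 0.69 to 0.9. The part of the cell types of these markers in the Terf1 and Rif1 values was not tested.

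**Figure D4:**
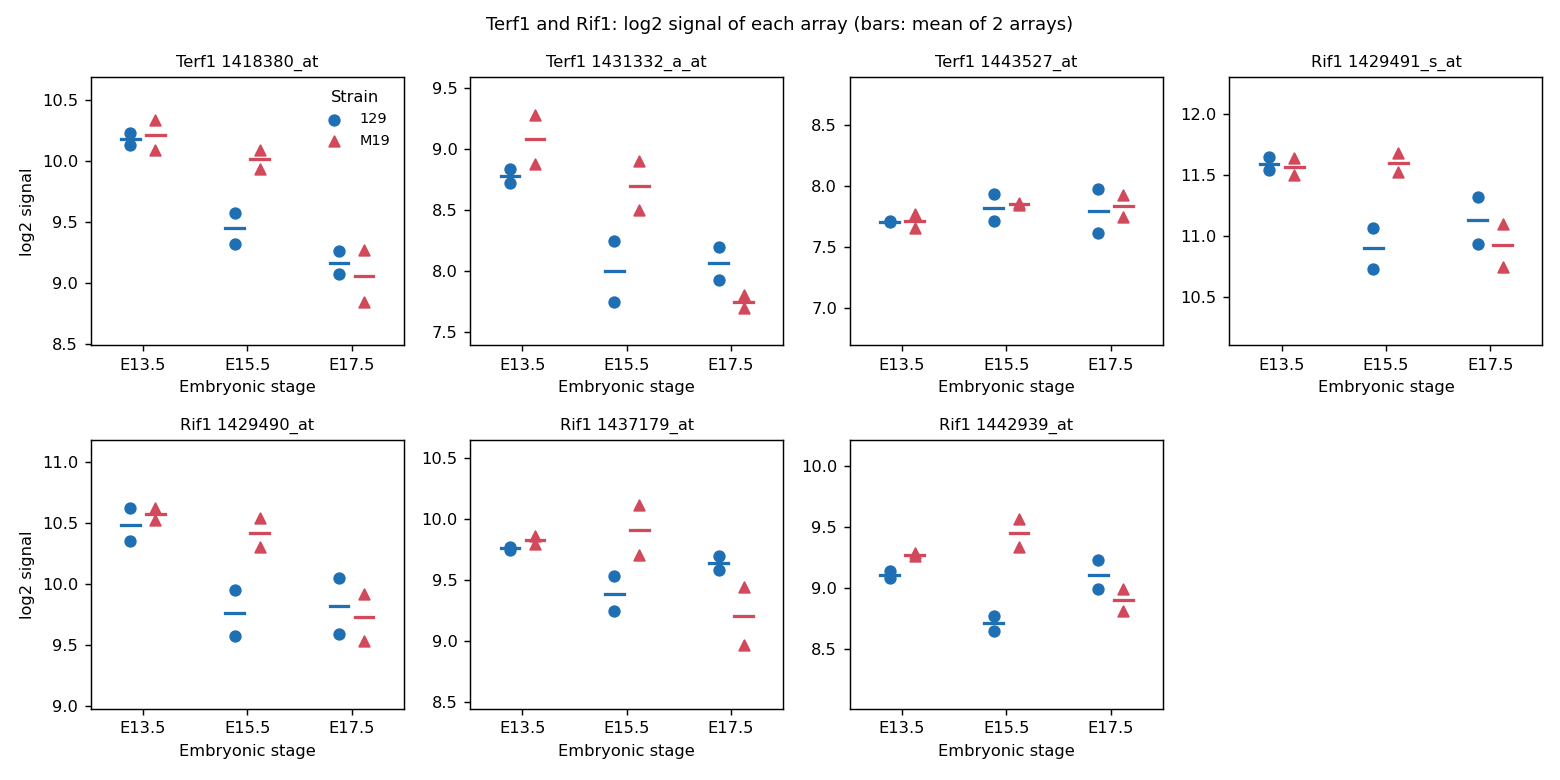
Log2 signal of the Terf1 and Rif1 probe sets against embryonic stage, by strain; each point is 1 array and each bar a group mean. At E15.5 Terf1 1418380_at reads 9.32 and 9.57 in 129 and 10.09 and 9.93 in M19, and Rif1 1429491_s_at 10.73 and 11.07 in 129 and 11.68 and 11.53 in M19.

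Tinf2, which joins both double-strand binders to the rest of shelterin, fell between E13.5 and E17.5. Probe set 1451163_at read 11.31 and 10.50 in 129 and 10.85 and 10.75 in M19 at E13.5. At E15.5 it read 10.99 and 11.00 in 129 and 10.32 and 10.19 in M19, and at E17.5 10.28 and 10.01 in 129 and 9.87 and 10.11 in M19. At E15.5 M19 read lower than 129 without a call, the reverse in sign of Terf1 and Rif1. The 129 arrays of that stage held the high skin, muscle and cartilage markers, whose part in the Tinf2 values was not tested. The 129 arrays of E13.5 had an SD of 0.57. The fall over the span was 0.79 ± 0.15 (1.73-fold; limma adjusted p = 0.004) and was called without any 1 array. The strain difference was -0.74 ± 0.22 at E15.5 (adjusted p = 0.32) and -0.33 ± 0.13 averaged over stages (adjusted p = 0.91). Without replicate 2 of 129 at E13.5 the averaged difference was -0.47. That group then rested on replicate 1, the array with the highest 18S control level and the higher Tinf2 value, 11.31. The other Tinf2 probe set, 1437166_at, changed by -0.35 ± 0.12 over the span (adjusted p = 0.06).

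Pot1a, which covers the single-stranded overhang, was the member that rose. Probe set 1448379_at read 10.21 and 10.47 in 129 and 10.21 and 10.36 in M19 at E13.5. At E15.5 it read 10.62 and 10.92 in 129 and 11.12 and 11.02 in M19, and at E17.5 10.83 and 10.67 in 129 and 10.49 and 10.78 in M19. All arrays of the later stages lay above those of E13.5. The rise from E13.5 to E17.5 was 0.38 ± 0.11 (1.30-fold; limma adjusted p = 0.03), and in M19 the step from E13.5 to E15.5 was 0.78 ± 0.15 (1.72-fold; adjusted p = 0.012). In 129 that step was 0.43 ± 0.15 (adjusted p = 0.19), and the interaction had an unadjusted p of 0.16 and an adjusted p of 1, so a difference between the strains was not shown. The span call was lost without replicate 1 of 129 at E13.5 or E17.5, either M19 array of E13.5 or replicate 2 of M19 at E17.5 (rises of 0.31 to 0.41, adjusted p 0.058 to 0.11). The M19 step was lost without any M19 array of E13.5 or E15.5 (rises of 0.71 to 0.86, adjusted p 0.063 to 0.14). The other 3 Pot1a probe sets were dim, between 3.06 and 6.21 on all arrays, and had no call.

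Terf2, the shelterin subunit that keeps chromosome ends from fusing, had no call in any comparison. Probe set 1455651_at ranged from 10.23 to 10.79 and 1421147_at from 10.06 to 10.53, with changes of -0.08 and -0.07 over the span and strain differences of 0.06 and 0.08. Probe set 1459650_at ranged from 8.00 to 8.32. Acd, the gene of the protein TPP1, which brings telomerase to the end, also had no call: 1420882_a_at ranged from 10.28 to 10.74, with a change of 0.05 ± 0.11 over the span and a strain difference of -0.02 ± 0.09. The absence of a call does not show that the levels are equal.

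Tert, the catalytic subunit of telomerase, has 2 probe sets, and 1 of them was called. Probe set 1456941_at read 6.85 and 7.40 in 129 and 7.20 and 7.14 in M19 at E13.5. At E15.5 it read 6.63 and 6.67 in 129 and 6.96 and 6.83 in M19, and at E17.5 6.31 and 6.33 in 129 and 6.46 and 6.52 in M19. All arrays of E17.5 lay below all arrays of the earlier stages. The fall over the span was 0.74 ± 0.11 (1.67-fold; limma adjusted p = 0.00076), and it was called without any 1 array, at 0.61 to 0.88. The strain difference was 0.16 ± 0.09 (adjusted p = 1), higher in M19 by sign at each stage. The brighter probe set, 1450254_at, ranged from 7.94 to 8.42 and changed by -0.14 ± 0.10 (adjusted p = 0.37), so the fall of Tert rests on the dimmer probe set. The genes most like 1450254_at over the 12 arrays were Mif (0.88), Hnrnpl (0.88), Nkx6-3 (0.88), Rasl11a (0.86) and Usp6nl (0.85), none of them on chromosome 19 and none called for strain.

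**Figure D5:**
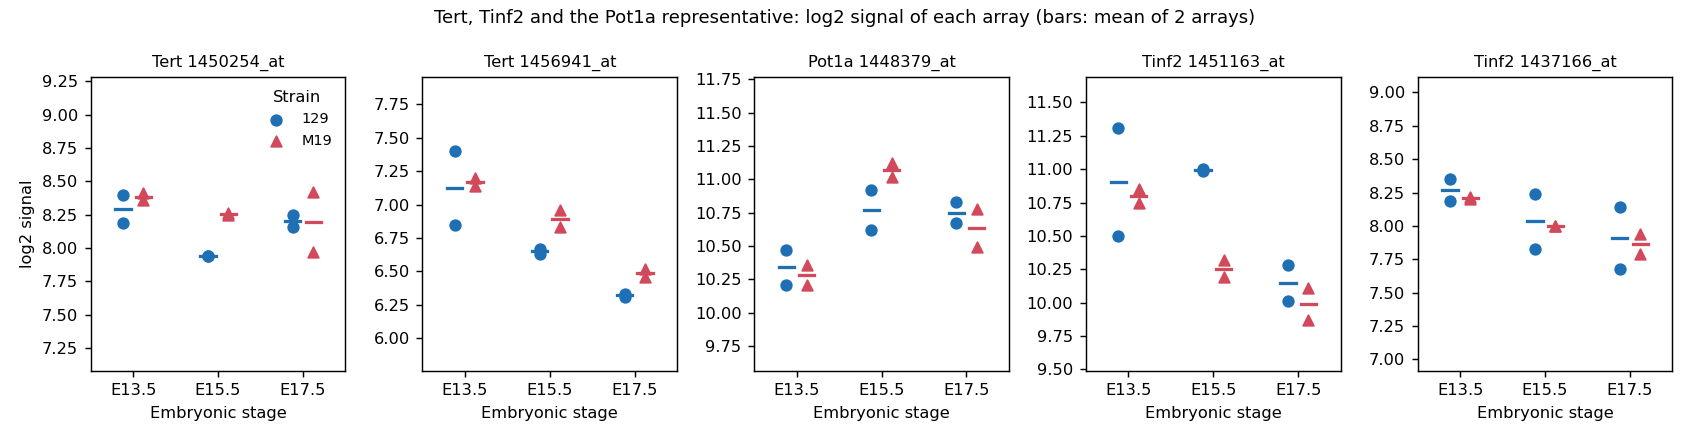
Log2 signal of the Tert and Tinf2 probe sets and of Pot1a 1448379_at against embryonic stage, by strain; each point is 1 array and each bar a group mean. Tert 1456941_at goes from group means of 7.13 and 7.17 at E13.5 to 6.32 and 6.49 at E17.5, and Pot1a 1448379_at from 10.34 and 10.29 to 10.75 and 10.63.

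The single steps between stages held few member calls. In 129 limma called 2 of 22 lower from E13.5 to E15.5, where 4.6% of all probe sets were called. From E15.5 to E17.5 it called 0 of 22, where 1.73% were called. In that later step 2 of 22 had an unadjusted p under 0.05, against 5880 of all 45037 probe sets. In M19 it called 1 of 22, Pot1a, from E13.5 to E15.5 (5.46% of all probe sets) and 2 of 22, both Terf1 and both lower, from E15.5 to E17.5 (2.34%).

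A wider list of 36 telomere genes, members apart, was examined the same way; 34 of them had a probe set, 74 in all, and Terc and Tep1 had none named here. In none of the 4 strain comparisons did limma call any of the 34 genes or 74 probe sets. At an unadjusted p under 0.05 there were 1, 1 and 0 of 34 genes at E13.5, E15.5 and E17.5 and 2 for the averaged comparison, and 2, 3, 0 and 3 of the 74 probe sets. Of all 18193 genes, 462, 1385, 273 and 850 had such a p, in the same order. The averaged differences of the 34 genes ran from -0.21 to 0.16 with a median of 0.01. Ctc1 and Ten1, the partners of Stn1 in CST, are among these genes without a strain call. The list's genes of chromosome 19, Tnks2 (a tankyrase, which modifies Terf1), Pola2 (a subunit of DNA polymerase alpha) and Majin (a meiotic telomere anchor), had differences by brightest probe set of -0.17 ± 0.06 for Tnks2, 0.04 ± 0.09 for Pola2 and -0.01 ± 0.07 for Majin, none called. The other probe sets of Tnks2 disagreed in sign, 1447522_s_at with 0.44 ± 0.12 (adjusted p = 0.35; 0.54, 0.47 and 0.31 at E13.5, E15.5 and E17.5) and 1452772_at with -0.13 ± 0.11 (adjusted p = 1).

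Over the span from E13.5 to E17.5, 9 of these 34 genes changed by their brightest probe set, 8 lower and 1 higher, with a median of -0.13. That share of 26.5% was close to the 27.3% of all 18193 genes called (4961). Called lower were 23.5% of the list and 10.9% of all genes (1987). Genes of the telomerase RNA-protein particle were among those that fell: Dkc1, its pseudouridine synthase, by 0.60 ± 0.11 (limma adjusted p = 0.0028), Nhp2, a core protein, by 0.54 ± 0.08 (adjusted p = 0.0009), and Naf1, an assembly factor, by 0.44 ± 0.10 (adjusted p = 0.011). Others on the list tied to that particle, Nop10, Gar1, Wrap53 and Shq1, had no call over this span. Ctc1, the largest CST subunit, fell by 0.46 ± 0.08 (adjusted p = 0.0019). The polymerase alpha and primase genes Pola1 and Prim1, which act with CST, fell by 0.55 ± 0.12 and 0.28 ± 0.08 by that probe set (adjusted p = 0.0077 and 0.036), but a dimmer one of Pola1, 1459319_at, rose by 0.48 ± 0.10 (adjusted p = 0.0057). Pola2 (-0.31 ± 0.11, limma adjusted p = 0.069) and Prim2 were not called over the span. The helicase genes Blm and Ruvbl2 fell by 0.47 ± 0.08 and 0.33 ± 0.10 (adjusted p = 0.0014 and 0.029). Majin, on a dim probe set with a mean of 6.44 over all arrays, rose by 0.30 ± 0.08 (limma adjusted p = 0.023). The calls of Dkc1, Nhp2, Ctc1, Pola1 and Blm held without any 1 array, and that of Naf1 was lost without replicate 2 of M19 at E13.5 (adjusted p = 0.054). Those of Prim1 (either M19 array of E13.5 or any array of E17.5), Ruvbl2 (replicate 1 of 129 at E13.5 or E17.5, either M19 array of E13.5 or replicate 2 of M19 at E17.5) and Majin (replicate 1 of M19 at E13.5 or of 129 at E17.5, or either M19 array of E17.5) were lost without the arrays named, with adjusted p up to 0.11.

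Over all 74 probe sets of the list, 22 were called over the span, 18 lower and 4 higher (29.7%, against 22.5% of all probe sets). Second probe sets of Ctc1, Dkc1, Nhp2 and Prim1 fell like the first, by 0.41 for Ctc1, 0.97 for Dkc1, 0.72 for Nhp2 and 0.31 for Prim1 (limma adjusted p of 0.0024 to 0.014). Several genes not called by their brightest probe set were called by others. Atrx, a chromatin remodeller, fell on 3 of them, by 0.36 to 0.61. Dclre1b 1440383_at, of a nuclease that trims chromosome ends, fell by 0.46 ± 0.12, and Tnks2 1447522_s_at fell by 0.55 ± 0.14 (adjusted p = 0.02 and 0.017). Smg6 1445418_at, of a nuclease of RNA decay, rose by 0.50 ± 0.11 (adjusted p = 0.0077). Rtel1, a helicase gene, had calls in both directions, a rise of 0.36 ± 0.11 on 1455347_at and a fall of 0.55 ± 0.17 on 1456729_x_at (adjusted p = 0.041 and 0.037). The calls of Pola1 1459319_at, Smg6, Atrx 1420948_s_at and the second probe sets of Ctc1, Dkc1 and Nhp2 held without any 1 array. That of Prim1 1449061_a_at was lost without replicate 1 of M19 at E13.5 or E17.5 (adjusted p = 0.07 and 0.057), and that of Atrx 1420947_at without replicate 2 of M19 at E13.5 (adjusted p = 0.053). Those of Atrx 1453734_at, Dclre1b, Tnks2 and both Rtel1 probe sets were lost without either M19 array of E13.5, replicate 2 of 129 at E17.5 or replicate 1 of M19 at E17.5, with adjusted p of 0.055 to 0.14. Those of Atrx 1453734_at and both Rtel1 probe sets were also lost without replicate 2 of 129 at E13.5, those of Dclre1b and Rtel1 1455347_at without replicate 1 of 129 at E17.5, and that of Rtel1 1455347_at without either M19 array of E15.5 or replicate 2 of M19 at E17.5 (adjusted p 0.052 to 0.12).

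In the single steps of 129 limma called 1 of the 34 genes each time, against 6.3% and 2.42% of all 18193 genes. In M19 it called 2 from E13.5 to E15.5 and 3 from E15.5 to E17.5, against 7.4% and 3.23%. The 129 steps use the E15.5 arrays with high skin, muscle and cartilage markers, whose part was not tested. Blm, a helicase that resolves recombination intermediates, and Shq1, an assembly factor of the same particle as Dkc1, had 3 calls each. Blm rose by 0.50 ± 0.11 in M19 from E13.5 to E15.5 (limma adjusted p = 0.02). From E15.5 to E17.5 it fell by 0.66 ± 0.11 in 129 (adjusted p = 0.012) and by 0.93 ± 0.11 in M19 (adjusted p = 0.0017). Shq1 rose from E13.5 to E15.5 by 0.61 ± 0.13 in 129 (adjusted p = 0.022) and by 0.59 in M19 (adjusted p = 0.022). From E15.5 to E17.5 in M19, Shq1 fell by 0.60 (adjusted p = 0.04) and Nhp2 by 0.56 ± 0.12 (adjusted p = 0.035). The fall of Blm in M19 was called without any 1 array. Each of the other step calls was lost without at least 1 array of the strain and stages compared, with adjusted p up to 0.12 for Blm in 129, 0.19 for its rise in M19, 0.37 for Shq1 and 0.36 for Nhp2.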

How the data were processed

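The authors deposited 1 value for each of 45101 probe sets on each of 12 Affymetrix mouse arrays. The deposited values are taken as log2 signal from their range; the summary method, background correction and normalization are not given in the sources used here. Array medians lie between 8.1 and 8.27. Arrays carry no read depth, and their number limits the precision.

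The 64 control probe sets were left out and no filter on dim probe sets was set; 13 of the 22 member probe sets reach the median of all probe set means. The platform annotation gave 34945 probe sets 1 gene, 932 several and 9160 none. The 34945 stand for 18193 genes, and 34741 of these probe sets matched RefSeq (GRCm38.p6). A gene without a named probe set is given by that with the highest mean. limma 3.58.1 in R 4.3.3 fitted 6 group means to all 12 arrays, with eBayes (6 residual and 4.82 prior degrees of freedom), no replicate block and two-sided tests adjusted by Benjamini-Hochberg over all probe sets. The procedure was tested on simulated data. Python 3.11.15, pandas 2.3.3 and matplotlib 3.10.9 made tables and plots.

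The members, lists and tests were chosen with earlier results of these data known. All member probe sets are named; of the wider telomere list, those with a call and those of chromosome 19; the 5 genes most like Stn1 and Tert; and neighbours of Stn1 within 500 kb. Alternatives changed the normalization, dim probe set filter, variance model, replicate block, arrays and probe sets used.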

Additional observations from a re-analysis of the deposited data

How the results depend on the processing

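Both arrays of a group may share a pool, so the SE given may hold only technical spread and be too small. A difference larger than its SE is not thereby resolved. Array signal has no read depth. The counts of member probe sets called changed as follows. For strain at E15.5 the count of 2 became 1 with arrays centred on their medians and 0 in a fit of the compared arrays alone. Averaged over stages, the count of 1 became 0 without the E15.5 arrays. For E13.5 to E15.5 in 129, the count of 2 became 4 with probe sets at or above the median and 4 with a variance trend. For E15.5 to E17.5 in 129 the count of 0 became 1 after median centring. For E15.5 to E17.5 in M19 the count of 2 became 4 with quantile normalization, 5 with probe sets at or above the median, 4 at or above the 25th percentile and 5 with a variance trend. The cause was not tested.

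The labels do not say whether the replicate numbers pair the samples. The correlations between strains of the difference between replicates were 0.249 at E13.5, -0.347 at E15.5 and -0.215 at E17.5. Being of mixed sign, they cannot settle whether a number marks a shared batch. With the replicate block the count was 0 for strain at E15.5, 0 for the 129 step from E13.5 to E15.5, 0 for the M19 step from E15.5 to E17.5 and 6 of 22 for the span.

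Leaving out 1 array gave 0 to 3 calls for strain at E15.5, 1 to 2 averaged, 0 to 0 at E13.5, at E17.5 and for the interaction, 0 to 2 for each step from E13.5 to E15.5, 0 to 1 and 0 to 4 for the steps from E15.5 to E17.5 in 129 and M19, and 6 to 9 for the span. A group left with 1 array was assumed to vary like the others.

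Of the single values, 1216 kept direction and side of the threshold, 196 missed it, 1 passed it and 18 changed sign; these include genes outside the members, added after seeing the data. Among the 34 further telomere genes the span count of 9 ran from 6 to 13, and no alternative gave a strain call. None of these 18 was called. Without 1 array, the strain difference of Stn1 1458998_at ran from -0.30 to 0.11 at E13.5 and from -0.19 to 0.04 at E15.5, changing sign to 0.11, 0.03 and 0.04. That of Stn1 1445544_x_at ran from -0.35 to 0.08 at E13.5 and from -0.21 to 0.13 at E15.5, changing sign to 0.08, 0.01, 0.07 and 0.13. The averaged strain difference changed sign in Terf1 1418380_at (-0.04), Pot1a 1448379_at (-0.08) and Rif1 1429491_s_at (-0.11) without the E15.5 arrays, and in Acd 1420882_a_at with median centring (0.00). Without 1 array it ran from -0.03 to 0.15 in Terf2 1455651_at (-0.03 and -0.00 changed sign), from -0.01 to 0.10 in Pot1a 1448379_at (-0.01 and -0.00) and from -0.10 to 0.05 in Acd (0.01, 0.02 and 0.05).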
